A study of Mus musculus with 4 samples.

Results

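Complement and acute phase genes were examined in cultured pancreatic cancer cells of TPC and TPAC mice. The genes were 9 by name: C3, Cfb, C4bp, C1s, Serping1, Cd59a, Cd46, Lcn2 and Saa3. They were chosen by earlier results on these arrays, among them a higher C4bp signal in both TPAC lines, so the TPAC against TPC values of the members are a description and carry no test. Each gene was matched to the gene symbol of the array platform, and C1s was found there as C1s1. C3 has no signal here, since no cluster carries its symbol in the platform table used, and it appears only among the promoters. This left 8 measured members of 19938 genes compared.

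Mouse tumours were dissociated and the cells grown in culture without treatment. The 2 TPC lines (TPC18645 and TPC20223) carry Ela-TGFa, Ptg1a+/CRE and Trp53fl/fl by their labels, and the 2 TPAC lines (K459 and TCPA18654) carry p65fl/fl as well. All 4 lines thus share the TGF-α transgene, which the elastase-1 promoter of acinar cells drives, and the Cre-dependent loss of p53 in the pancreas, and only TPAC cells lose RelA/p65 in addition. The study spells the Cre driver p48-Cre. The ages of the mice that gave the lines were not used here, and the sources used here do not say whether 2 lines of 1 genotype stem from different animals. Each line was measured on 1 array, so a line has no error of its own and values given as mean ± SD describe 2 lines. The number of arrays limits the precision.

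Complement is a cascade of plasma proteins that tags and lyses cells. C1s, a serine protease of the C1 complex, starts the classical pathway by cleaving C4 and C2, factor B (Cfb) forms the alternative pathway C3 convertase with C3, and host cells are shielded by soluble regulators (C4bp, Serping1) and membrane regulators (Cd46, Cd59a). Acute phase genes are induced in liver and in many epithelia by IL-6 acting through STAT3 and by IL-1 and TNF acting through NF-κB and C/EBP factors. Lcn2, which binds bacterial siderophores, and Saa3, a serum amyloid A made mostly outside the liver, belong to this group. RelA, deleted in TPAC mice, is the main transactivating subunit of canonical NF-κB.

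Before the members, the lines themselves must be described. TPC20223 had a log2 signal of 6.08 for Krt19, the cytokeratin 19 of ductal cells, where the other 3 lines ranged from 11.74 to 12.65. TPC18645 and TCPA18654 were close to each other in spite of different genotype labels: 0.271% of genes differed between them by a log2 difference of 1 (2-fold) or more, against 11.3% between the 2 TPC lines and 3.87% between the 2 TPAC lines. Over all genes the median absolute log2 difference was 0.12 between TPC18645 and TCPA18654, 0.17 between K459 and TCPA18654 and 0.25 between the 2 TPC lines. Rela had log2 signals of 11.12 and 10.70 in the TPC and 10.82 and 11.10 in the TPAC lines. The sources used here do not name the deleted exons, so the Rela signal is no check of the genotype labels.

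The promoters of 4 members are shown first, each read 5′ to 3′ along the strand of its gene, to give the sequence context of the genes described below. RefSeq windows of GRCm38.p6 reach from 250 bases before the transcription start to 50 bases from it on, and 7 of the 9 genes have at least 1. Capitals mark matches to patterns of factors that act on acute phase and interferon-induced genes, searched on both strands: a loose C/EBP pattern (TTNNGNAA), a STAT site (TTCNNNGAA), an interferon-stimulated response element (GAAA, 2 bases of any kind, then GAAA) and the κB consensus of NF-κB. C1s, Cd59a and Saa3 are shown because their signals were lowest in K459, and C4bp because both TPAC lines lay above both TPC lines. Positions count from 0 at the transcription start.
C4bp, chr1:130661569-130661868, - strand: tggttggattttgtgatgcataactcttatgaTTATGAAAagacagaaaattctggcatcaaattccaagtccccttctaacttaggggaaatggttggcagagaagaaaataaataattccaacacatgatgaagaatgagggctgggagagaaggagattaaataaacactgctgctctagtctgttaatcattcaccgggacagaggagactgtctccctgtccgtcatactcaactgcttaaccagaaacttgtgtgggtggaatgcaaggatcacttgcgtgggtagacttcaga
C1s, chr6:124542310-124542609, - strand: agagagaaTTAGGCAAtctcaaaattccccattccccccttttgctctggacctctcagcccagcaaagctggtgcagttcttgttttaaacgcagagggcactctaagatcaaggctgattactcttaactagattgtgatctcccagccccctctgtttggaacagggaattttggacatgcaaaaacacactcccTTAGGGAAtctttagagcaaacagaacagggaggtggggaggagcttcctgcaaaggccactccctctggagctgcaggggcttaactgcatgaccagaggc
Cd59a, chr2:104095551-104095850, + strand: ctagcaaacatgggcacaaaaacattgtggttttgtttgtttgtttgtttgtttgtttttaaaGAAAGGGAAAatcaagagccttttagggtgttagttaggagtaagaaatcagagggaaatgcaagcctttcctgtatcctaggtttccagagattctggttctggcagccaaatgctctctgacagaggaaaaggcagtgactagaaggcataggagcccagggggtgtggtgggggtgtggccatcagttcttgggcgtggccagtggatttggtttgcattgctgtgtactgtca
Saa3, chr7:46715627-46715926, - strand: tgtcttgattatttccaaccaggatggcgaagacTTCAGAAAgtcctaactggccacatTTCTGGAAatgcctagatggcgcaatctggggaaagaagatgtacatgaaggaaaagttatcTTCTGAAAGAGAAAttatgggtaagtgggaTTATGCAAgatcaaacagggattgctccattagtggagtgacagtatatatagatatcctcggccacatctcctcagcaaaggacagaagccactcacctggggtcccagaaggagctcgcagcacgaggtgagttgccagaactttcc

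The Saa3 window held 4 matches to the C/EBP pattern, starting at -216, -191, -129 and -99, the third of which overlapped a match to the interferon-stimulated response element at -125. The C1s window held C/EBP matches at -242 and -52, and the C4bp window 1 at -218. The Cd59a window held an interferon-stimulated response element at -187. Of all 32851 windows of this length, 40.7% held the C/EBP pattern and 3.44% the interferon-stimulated response element. Among the 7 members with a window, 5 and 3 held them. Members are counted here by gene and the shares by window, and no test was made. No match to the κB consensus (8.46% of all windows) or to the STAT site (8.3%) was found in the windows of the 7 members. These letters are therefore absent from these windows, which says nothing of the factors. Cfb and Serping1 have no window here.

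**Figure D1:**
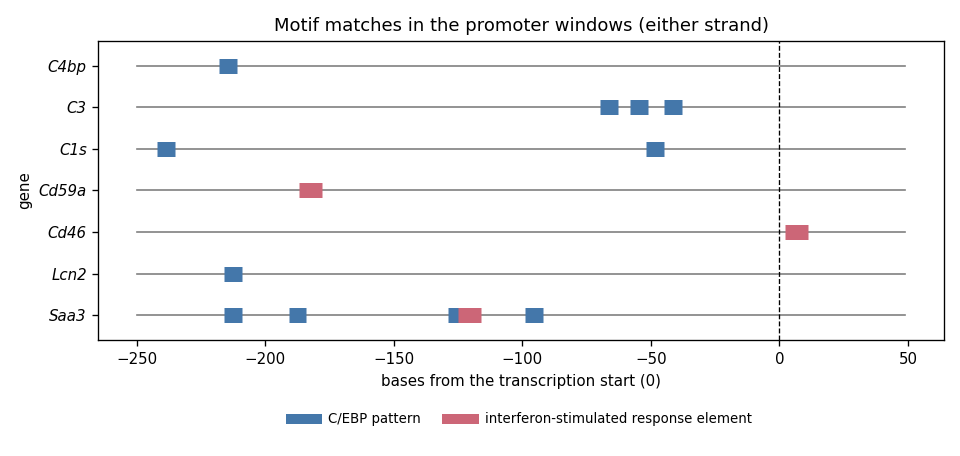
Positions of motif matches (coloured blocks) in the 300-base promoter windows of 7 genes, in bases from the transcription start (0, dashed line); grey lines are the windows, and for C1s the first of its 2 windows is drawn. Saa3 holds 4 matches to the C/EBP pattern, with 1 of them overlapping an interferon-stimulated response element, and C3 holds 3.

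The members did not share 1 direction between the genotypes. C4bp had higher signals in both TPAC than in both TPC lines, Serping1, Cd59a and Saa3 had lower ones, and Cfb, C1s, Cd46 and Lcn2 overlapped between the genotypes. Across all genes both TPAC lines lay above both TPC lines in 13.7% and below in 13.3%. The median log2 difference between TPAC and TPC was -0.678 over the 8 measured members and 0.015 over all genes. The median over the members was -0.215 without K459, -1.10 without TCPA18654, -0.718 without TPC18645 and -0.63 without TPC20223. limma, with calls set at an adjusted p of at most 0.05 together with a log2 difference of at least 0.58, called 0 of 19938 genes (0% higher and 0% lower in TPAC, smallest adjusted p = 0.989), so 0 members were called. Before adjustment, at a p under 0.05 with that log2 difference, limma found 38 genes higher and 46 lower, or 0.421% of all genes.

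Single lines stood apart for most members. The log2 signals of 7 of the 8 members spanned 1 or more between the lowest and the highest line, against 15.9% of all genes. In K459, 4 members (C1s, Serping1, Cd59a and Saa3) were lower by 1 or more than in each of the 3 other lines, where 66 of 19938 genes (0.331%) were. Without TPC20223 this held for 5 members, with Lcn2 added, and for 1.12% of all genes. In TPC20223, 2 members (Cfb and Lcn2) were lower by 1 or more than in each other line (2.95% of all genes) and Serping1 was higher (4.25%). The same 2 members were lower in TPC20223 when K459 was left out, where 4.18% of all genes were. No member lay 1 or more apart from each other line in TPC18645 (0.0251% of all genes above and 0.0401% below) or in TCPA18654 (0.0201% and 0.0602%), no member did so upwards in K459 (0.988%), and none differed by 1 or more between TPC18645 and TCPA18654. These counts compare single arrays, were set up after the values were seen and have no test. In such cultures, fewer cells that express a gene and less RNA of it per cell cannot be told apart.

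**Figure D2:**
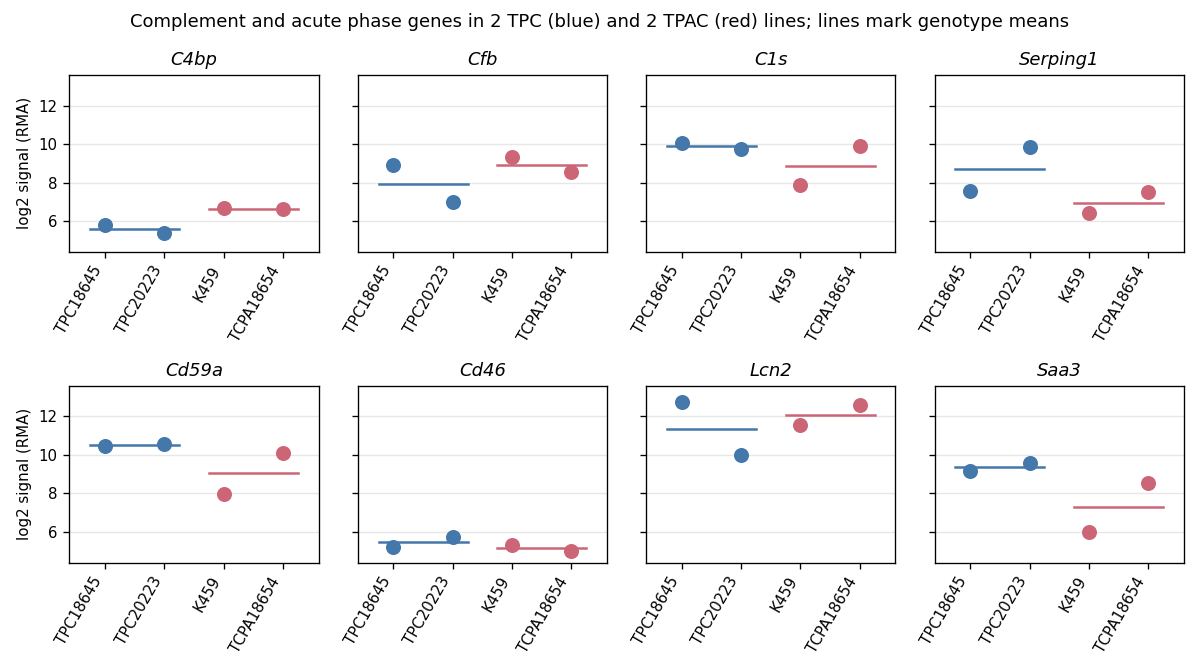
Log2 RMA signal (y axis) of the 8 measured members in the 2 TPC lines (blue) and the 2 TPAC lines (red); points are arrays and horizontal lines genotype means. K459 is lowest for C1s, Serping1, Cd59a and Saa3, TPC20223 is lowest for Cfb and Lcn2, and both TPAC lines lie near 6.6 for C4bp.

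C1s, the protease that cleaves C4 and C2, had log2 signals of 10.08 and 9.72 in TPC18645 and TPC20223 and of 7.86 and 9.88 in K459 and TCPA18654. K459 alone was low, at a log2 difference of -2.02 from TCPA18654 of the same genotype and -2.22 from TPC18645. The log2 difference between TPAC and TPC was -1.03 with the 4 lines, -0.02 without K459 and -2.04 without TCPA18654. TPAC lines averaged 8.87 ± 1.43 (SD, n = 2), TPC lines averaged 9.90 ± 0.25 (SD, n = 2), and the genotypes overlapped. Its substrate C4b, which is no member, had 8.78, 8.28, 6.61 and 8.18 in the same order of lines. C4b was the only one of 98 measured listed genes outside the members that was lower by 1 or more in K459 than in each other line.

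Cfb, the serine protease of the alternative pathway convertase, had log2 signals of 8.91 and 6.98 in TPC18645 and TPC20223 and of 9.32 and 8.55 in K459 and TCPA18654. TPC20223 was the low line, with TCPA18654 1.57 above it, and the 2 genotypes overlapped. The log2 difference between TPAC and TPC was 0.99 with the 4 lines, 0.025 without TPC20223 and 1.96 without TPC18645. The signal of Cfp (properdin), which stabilises this convertase, was between 6.86 and 7.30 in the 4 lines.

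C4bp, the circulating inhibitor that dissociates the C4b-C2a convertase and helps factor I to cleave C4b, had log2 signals of 5.81 and 5.36 in TPC18645 and TPC20223 and of 6.65 and 6.64 in K459 and TCPA18654. Both TPAC lines lay above both TPC lines and differed from each other by 0.01. TPAC lines averaged 6.64 ± 0.007 (SD, n = 2) and TPC lines 5.59 ± 0.32 (SD, n = 2), which is 1.06 on the log2 scale or 2.08-fold. The difference was 1.29 without TPC18645, 0.84 without TPC20223, 1.05 without K459 and 1.06 without TCPA18654. TCPA18654 exceeded TPC18645, the TPC line closest to it, by 0.83, and 49 genes of 19938 (C4bp included) had a difference of that size or more in this direction. A gap of at least 0.83 between the lower TPAC and the higher TPC line was found for 13 genes, with C4bp among them. Since C4bp was chosen with its higher signal in both TPAC lines known, these counts and differences only describe it. C4bp was dim, at the 24.7th percentile of mean signal over all genes, and without a detection call in the deposited values its excess over background is unknown.

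Serping1 encodes the C1 inhibitor, a serpin that blocks C1r, C1s and the MASP proteases. Its log2 signals were 7.55 and 9.85 for TPC18645 and TPC20223, and 6.39 and 7.51 for K459 and TCPA18654. TPC20223 was 2.30 above TPC18645, K459 differed by -1.12 from TCPA18654, and TCPA18654 by only -0.04 from TPC18645. This last value is all that kept the genotypes apart, and with a common median per array they overlapped. Serping1 differed between TPAC and TPC by -1.75 with the 4 lines, by -2.90 without TPC18645 and by -0.60 without TPC20223, the line of low Krt19.

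Cd59a, the membrane protein that stops the assembly of the membrane attack complex, had log2 signals of 10.48 and 10.58 in TPC18645 and TPC20223 and of 7.95 and 10.12 in K459 and TCPA18654. Both TPAC lines lay below both TPC lines, with differences of -0.36 and -0.46 for TCPA18654 and of -2.53 and -2.63 for K459 (from TPC18645 and TPC20223). The log2 difference was -1.50 with the 4 lines, -0.41 without K459 and -2.58 without TCPA18654. Cd59b, the neighbouring paralog, had 7.0, 7.08, 5.73 and 6.54 in the same order of lines. Its order was the same, and whether the probes of the 2 paralogs share signal was not tested.

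Cd46, a cofactor for the cleavage of C3b and C4b that is found mainly in testis in mice, had log2 signals of 5.22 and 5.74 in TPC18645 and TPC20223 and of 5.31 and 5.0 in K459 and TCPA18654. It was the only member that spanned less than 1, and the genotypes overlapped. Its mean signal lay at the 13.5th percentile of all genes. Cr1l (Crry), the widely expressed mouse regulator of the same step, had 8.11, 7.32, 8.53 and 7.97.

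Lcn2 (lipocalin 2) had log2 signals of 12.73 and 12.61 in the similar lines TPC18645 and TCPA18654, of 11.53 in K459 and of 9.99 in TPC20223. TPC20223 was lowest and K459 stood between it and the 2 similar lines. The log2 difference between TPAC and TPC was 0.71 with the 4 lines and turned to -0.66 without TPC20223. With TPC18645 left out it was 2.08. K459 differed from TCPA18654 by -1.08, and the genotypes overlapped.

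Saa3 had log2 signals of 9.14 and 9.55 in TPC18645 and TPC20223 and of 5.99 and 8.55 in K459 and TCPA18654. Both TPAC lines lay below both TPC lines, and K459 differed from TCPA18654 by -2.56. Saa3 differed between TPAC and TPC by -2.08 (4.21-fold), with means of 7.27 ± 1.81 (SD, n = 2) and 9.35 ± 0.29 (SD, n = 2). Without K459 the difference was -0.80, without TCPA18654 it was -3.36, and TCPA18654 differed from TPC18645 by -0.59. The liver serum amyloid genes Saa1 and Saa2 were dim in all 4 lines, between 3.50 and 4.10 and between 4.51 and 4.78.

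**Figure D3:**
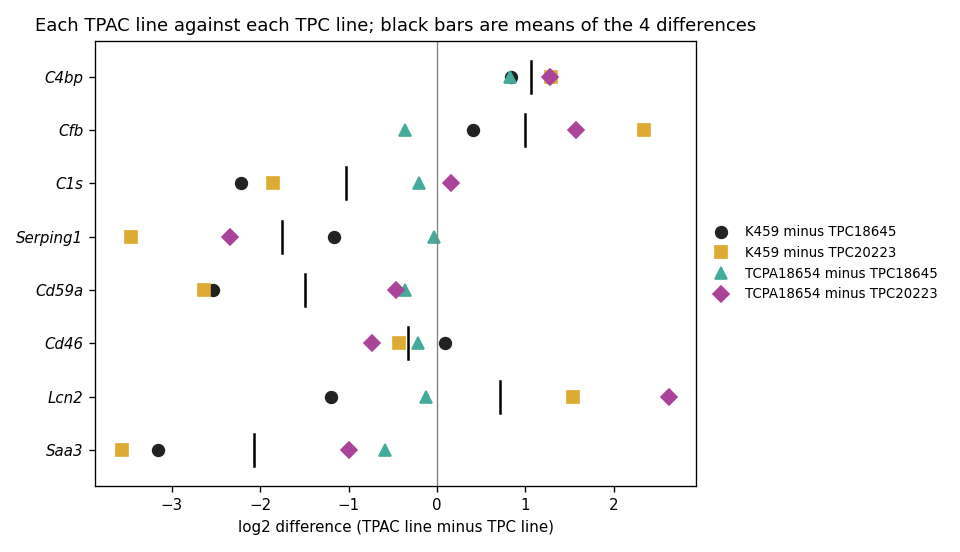
Log2 difference of each TPAC line from each TPC line (x axis) for the 8 measured members; symbols are pairs of lines and black bars the mean of the 4 pairs. All 4 pairs are above 0 for C4bp only, and the pair of TCPA18654 and TPC18645 (triangles) lies between -0.59 and 0.83.

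The genes of the complement system were counted by list, with the members in their lists. Both TPAC lines lay above both TPC lines for 2, and below for 6, of 19 classical and lectin pathway genes. These counts were 2 and 1 of 8 soluble regulators, 2 and 2 of 9 membrane regulators, 1 and 0 of 7 terminal pathway genes and 1 and 1 of 7 receptors. Across all genes the shares were 13.7% and 13.3%. Of 19 measured genes of the classical and lectin pathways, 14 had lower and 5 higher mean signals in TPAC cells (median -0.09 on the log2 scale). The median was 0.06 without K459, -0.08 without TPC18645, -0.065 without TPC20223 and -0.145 without TCPA18654. The 5 genes of this list that spanned 1 or more (C1s, C1s2, C2, C4a and C4b) were all lowest in K459 and highest in TPC18645. C4a was dim, and C1s2 had 6.90 in TPC20223 against 6.56 in K459. Whether probes of the paralogs C4a and C4b, or C1s and C1s2, share signal was not tested. C2, the protease that joins C4b in the convertase, had 8.82 and 7.97 in TPC18645 and TCPA18654 but 5.97 and 5.84 in TPC20223 and K459. The 3 C1q chains had signals between 5.84 and 6.86 in all lines.

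Among 8 measured soluble regulators, 6 were higher and 2 lower in TPAC cells, with a median of 0.62. The median was -0.005 without TPC20223, 0.8 without TPC18645, 0.292 without K459 and 0.722 without TCPA18654. Cfi, the protease factor I that works with C4bp, was dim, with 8.48 in K459 and 5.69 to 6.54 in the other lines. TPC18645 had 6.36 and TCPA18654 6.54, so both TPAC lines lay above both TPC lines, as for C4bp and 13.7% of all genes. Clu (clusterin), which blocks terminal complement assembly, had 10.68 in TPC20223 and 13.38 to 13.59 in the other lines. Cpn1, a carboxypeptidase that inactivates anaphylatoxins, ran from 5.94 in TPC20223 to 9.75 in K459.

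Of 9 membrane regulators, 5 were higher and 4 lower, with a median of 0.005 that ran from -0.05 to 0.095 with 1 line left out. Cd55, which accelerates the decay of convertases, had 5.88 in TPC20223 and 7.80 to 8.55 elsewhere, and Susd4 had 8.04 in TPC20223 and 6.20 to 6.51 elsewhere. The 7 terminal pathway genes were all dim, and none spanned 1. Of 7 receptors 3 were higher and 4 lower (median -0.01, from -0.21 to 0.185 with 1 line left out), and C3ar1 and Itgb2 were highest in TPC18645, with 7.92 and 8.35. No gene of these lists passed limma's test, as none of all genes did.

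**Figure D4:**
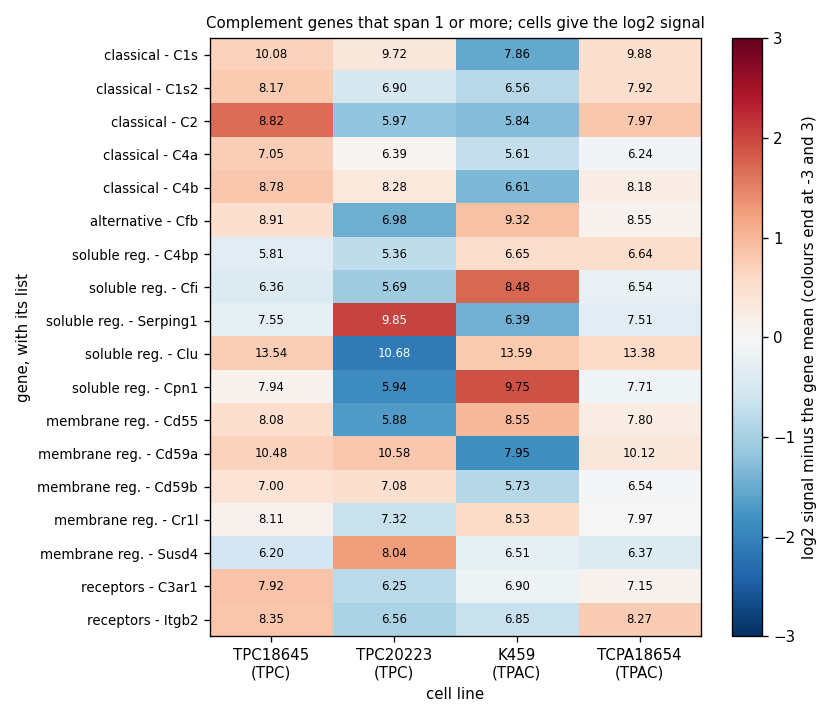
Complement genes whose log2 signals span 1 or more, members included, by line; cells print the log2 signal and colours the difference from the gene's mean over 4 lines, cut at -3 and 3. The C1s, C1s2, C2, C4a and C4b rows are lowest in K459, and the Clu, Cd55 and Cfb rows are lowest in TPC20223.

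Of 11 acute phase genes that spanned 1 or more, Lcn2 and Saa3 included, 7 were lowest in TPC20223. Of 30 measured genes, 17 had higher and 12 lower mean signals in TPAC cells, with a median of 0.07. The median was -0.09 without TPC20223, -0.06 without TCPA18654, 0.21 without TPC18645 and 0.07 without K459. Trf (transferrin), the iron carrier, had 7.22 in TPC20223 and 11.08 to 11.72 elsewhere, Cp (ceruloplasmin), a copper protein, had 9.86 there and 11.99 to 12.55 elsewhere, and Lbp, which binds lipopolysaccharide, had 9.36 there and 11.57 to 12.74 elsewhere. Steap4, a metalloreductase of iron and copper, was lowest in K459, with 8.60 against 9.02 in TPC20223 and 10.60 and 10.17 in TPC18645 and TCPA18654. Hpx (hemopexin), the heme scavenger, was high in TPC18645 and TCPA18654 (9.27 and 9.10) and low in TPC20223 and K459 (6.61 and 6.94). The serpin Serpina3n and the pentraxin Ptx3 had their highest signals in TPC20223, with 10.21 and 10.67 against 5.89 to 6.15 and 5.97 to 7.2 in the other lines. The classical liver genes Crp, Apcs, Orm2 and Fgg stayed at 6.4 or less.

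Markers of other cell types also differed between the lines. Of 9 ductal markers, 8 were lowest in TPC20223, and the mean log2 signal of the list was 7.25 there and 10.48, 11.84 and 10.69 in TPC18645, K459 and TCPA18654. Fibroblast markers (9 genes) had a mean of 9.05 in TPC20223 and of 7.83, 8.22 and 7.74 in TPC18645, K459 and TCPA18654. Col1a1 had 13.02 in TPC20223 and 8.53 to 10.36 elsewhere, but Dcn had 9.35 there and 11.03 and 10.99 in TPC18645 and TCPA18654, Thy1 was highest in K459 with 8.86, and Lum and Fap were dim and between 4.27 and 4.78. Hepatocyte markers (8 genes, of which 5 were above the 40th percentile of mean signal) had means of 7.94, 5.59, 7.2 and 7.99 in TPC18645, TPC20223, K459 and TCPA18654. Alb (albumin) had 12.47 and 12.77 in TPC18645 and TCPA18654 but 5.90 in TPC20223 and 7.68 in K459. Apob and Ahsg were also highest in TPC18645 and TCPA18654. Ttr and Apoa1 were instead highest in K459, with 10.31 and 9.4. Macrophage markers had means of 6.15 to 6.90. Of these 9 genes 7 were dim, Ptprc and Adgre1 among them at 6.02 or less in all lines, and 4 spanned 1 or more. Cd14 had 9.66, 6.66, 10.53 and 9.59 and Cd68 had 8.6, 6.66, 7.66 and 8.6 in TPC18645, TPC20223, K459 and TCPA18654, and Mrc1 (7.39) and Lyz2 (6.91) were highest in K459. Neutrophil markers had means of 5.49 to 5.62 and endothelial markers of 5.90 to 6.29. Acinar markers had means of 6.41 to 7.04 and Schwann cell markers of 7.30 to 7.65. The part of these cell types in the values of the members was not tested.

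**Figure D5:**
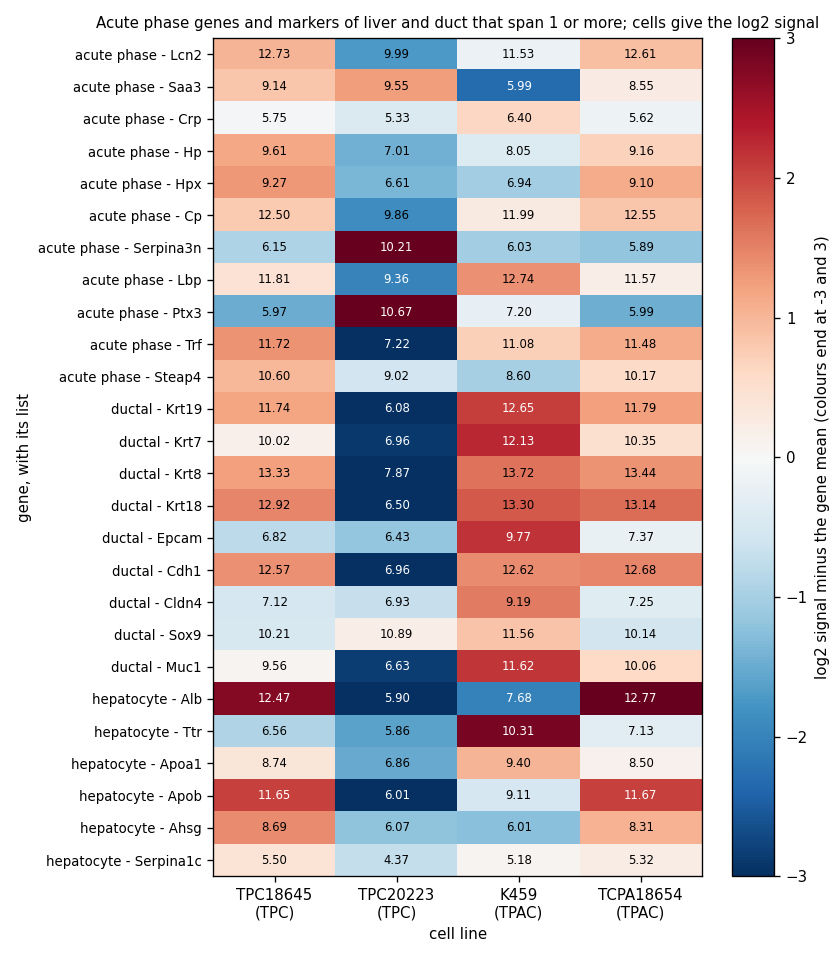
Acute phase genes and markers of ducts and hepatocytes whose log2 signals span 1 or more, by line; cells print the log2 signal and colours the difference from the gene's mean over 4 lines, cut at -3 and 3. Trf, Cp and Lbp are lowest in TPC20223 together with Krt8, Krt18 and Krt19, and Hp, Hpx, Alb and Ahsg are highest in TPC18645 and TCPA18654.

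Of 24 measured genes that carry or receive acute phase signals, 12 had higher and 12 lower mean signals in TPAC cells, with a median of -0.02 that ran from -0.11 to 0.082 with 1 line left out. Il6 was dim but had 6.31 in K459 against 3.92 to 4.68 in the other lines, and Il1rn, the IL-1 receptor antagonist, had 11.38 in K459 against 9.55 to 10.24. Nfkbiz (IκBζ), a cofactor of NF-κB at the Lcn2 gene, had 7.66 in TPC20223 and 9.61 to 9.80 elsewhere, and Cebpd, a C/EBP factor, had 7.26 there and 8.45 to 8.61 elsewhere. Hnf4a, a transcription factor of liver and gut epithelium, had 7.35 in TPC20223 and 10.93 to 11.84 elsewhere. The shared IL-6 receptor chain Il6st was highest in TPC20223, with 12.47. Nfkbia, an NF-κB target that encodes its inhibitor IκBα, had 9.52 in K459 and 10.40 to 10.51 in the other lines, and was named after its values were seen.

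The genes with profiles most like those of the members were sought among 11952 genes above the 40th percentile, by the root mean square difference of centred log2 signals over the 4 arrays. For Cfb these were Lpar6 (0.061), Mgst3 (0.085) and Camsap3 (0.090), and for Lcn2 they were Sorbs2 (0.061), Fetub (0.093) and Mab21l4 (0.094). For C4bp they were 2610528A11Rik (0.137), Tns4 (0.144) and Snap25 (0.153). For C1s they were Gfpt2 (0.108), Dubr (0.110) and Zfp521 (0.123), and for Serping1 Scube3 (0.142), A4galt (0.144) and Slfn3 (0.171). Cd59a and Saa3 had the same nearest gene, Bves (0.255 and 0.229), followed by Dubr (0.261) and Zfp521 (0.276) for Cd59a and Hspb8 (0.269) and Arhgdib (0.293) for Saa3. With 4 arrays that share 1 normalization, these values describe the arrays only.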

How the data were processed

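Cultured mouse pancreatic cancer cells of 4 lines were profiled on 1 array each. The authors deposited log2 signals from RMA. Affymetrix Expression Console 1.4 is the tool in the submitters' processing notes. RMA sets all arrays to a common distribution, which hides any difference in the amount of RNA. Array medians were 7.19 to 7.26. Of 28941 transcript clusters, 21789 carry 1 gene symbol, 1621 several and 5531 are unnamed here. Each gene was represented by its cluster of highest mean signal, giving 19938 genes, of which 19856 matched RefSeq (GRCm38.p6) by Entrez number. Genes not above the 40th percentile of mean signal are named dim (C4bp and Cd46), and 6 measured members were above it.

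TPAC and TPC were compared over all genes with R 4.3.3 and limma 3.58.1 (two-sided, lmFit then eBayes) and adjusted after Benjamini-Hochberg. The members and gene lists were chosen with earlier results of these data known. Beyond members, their paralogs, Rela and the listed markers, genes named were those spanning 1 or more in their list (at most the 6 widest) and the 3 nearest profiles of each member. Cfp, the C1q chains, Crp, Apcs, Orm2, Fgg, Hp, Steap4, Nfkbia and the chromosomal neighbours were named for their role or after their values were seen. The alternatives tried were cyclic loess, a common median per array, averaging the clusters of a gene, dim genes left out, an intensity trend, another threshold and leaving out each line, which leaves 1 array in a group that is assumed to vary like the other group. The limma fit and the motif search were tested on simulated data. The limma simulation gave all genes a common spread, so it does not show the power of the test at the unequal spreads of these lines. The p-values reflect only how these 4 lines vary.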

Additional observations from a re-analysis of the deposited data

How the results depend on the processing

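limma called 0 genes in each of the 10 alternatives, with a smallest adjusted p of 0.0913 without TPC18645. At an unadjusted p under 0.05 and a log2 difference of 0.58 or more, 1259 genes were higher and 1586 lower without TPC18645. Leaving out TPC20223 gave 38 and 76, leaving out K459 gave 12 and 7, and leaving out TCPA18654 gave 264 and 131. The number of members with TPAC and TPC lines fully apart was 4 with all lines, 3 with a common median per array (Serping1 then overlapped) and 4 with cyclic loess. With 1 line left out it was 5 to 7 of 8. Groups of 2 lines and 1 are more often apart: 7 members and 75.2% of all genes were when TPC18645 was dropped, 6 members and 61.5% when TPC20223 was, 5 members and 55% when K459 was, and 6 members and 58.3% when TCPA18654 was, against 4 members and 27% with all lines. Another scaling, or the mean of a gene's clusters, moved a member difference by at most 0.041. Of 56 member differences under an alternative 55 kept their direction, some of them near 0 (C1s at -0.02 without K459). Lcn2 turned to -0.66 without TPC20223. Many of the 56 could not have turned, so the count is no measure of stability. Each measured member has 1 cluster, so averaging clusters changed nothing. A member whose groups are fully apart keeps its direction when 1 line is left out. Counts of members in which K459 or TPC20223 lay apart, added after seeing the data, stayed at 4 and 2 under both scalings. The median difference of all genes moved from 0.015 to 0.035 and -0.001 under the 2 scalings. No paired analysis was possible because the labels give no shared replicate numbers. The low signals of C4bp, Cd46, Il6 and the terminal complement genes may limit the size of their differences, which was not tested.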

Other observations

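Several members lie beside related genes in the RefSeq gene order, and the neighbours can be set beside them. On chromosome 6, C1ra and C1rl precede C1s and had 7.25 and 8.29 in K459, their lowest signals, against 7.78 to 8.17 and 8.48 to 8.82 in the other lines. C1s2, 2 places after C1s, was also lowest in K459, with 6.56, but TPC20223 was low as well, with 6.90. TPC18645 and TCPA18654 had 8.17 and 7.92 for C1s2. On chromosome 17, C2 is next to Cfb but differed from it in K459, which was highest for Cfb (9.32) and lowest for C2 (5.84). The other lines had the same order for both genes. In TPC18645, TPC20223 and TCPA18654, Cfb had 8.91, 6.98 and 8.55 and C2 had 8.82, 5.97 and 7.97. On chromosome 7, Saa4, Saa1 and Saa2 follow Saa3 and spanned less than 1 between the lines. On chromosome 1, Cd55 and Cd55b lie 2 and 3 places before C4bp. Cd55b had 5.59 and 5.41 in the TPC and 5.90 and 5.82 in the TPAC lines, at dim signal. Both TPAC lines thus lay above both TPC lines, as for C4bp and for 13.7% of all genes. The neighbours Thsd7b and AA986860 also had this order, and the others looked up around C4bp did not. Cd55 overlapped between the genotypes, with 8.08 and 5.88 in the TPC and 8.55 and 7.80 in the TPAC lines. Cr1l is next to Cd46, on the side opposite to Cd34, which had 11.51 in TPC20223 and 6.31 to 7.77 in the other lines. The neighbours were looked up after the member values were seen, and no test was made.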
